A study of Homo sapiens and Mus musculus with 55 samples.

Results

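The genes described here encode integrin subunits and laminin chains. They were chosen by symbol alone, as every row named ITGA or ITGB followed by a number or by D, E, L, M, V or X, or LAMA, LAMB or LAMC followed by a digit. In all, 37 genes matched in at least 1 of 10 tables that hold 24465 to 36036 rows each. A mean of at least 10 normalized counts over a table was reached by 33 of the 37 in at least 1 table and by 15 in every table, which left 22 to 30 genes to test per table. ITGAD, ITGAL, ITGA9 and the mouse gene Itga4 stayed under that mean in every table where they had a row, and human ITGA4 was not analysed here. A gene with few reads can pass such a filter only through the group in which it is high, so counts over the tested genes describe them and are not given as support.

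The study measured mRNA by RNA sequencing in breast cancer cell lines in which MYC or the innate immune adaptor STING was altered, with 40 human and 15 mouse libraries. SUM159PT and MDA-MB-436 come from human breast cancers of the triple-negative kind, 4T1 is a mouse mammary carcinoma line and Py230 comes from a mouse mammary tumour. Sublines named Tax-R, a name that the labels do not spell out, were set against parental (Par) cells, both labelled as having no treatment (2 libraries a group). Tax-R cells of both human lines, and 4T1 cells, received either of a pair of MYC siRNAs (siMYC1, siMYC2) or a control siRNA (siC), with 2 libraries a group in human cells and 3 in 4T1. Cells of both human lines carried a STING sgRNA (groups C1 and C2) or were mock parental cells of the CRISPR experiment (2 libraries a group), and sgSTING cells of both lines were given a STING or a GFP open reading frame (ORF; 2 libraries a group). Py230 cells that carry a Sting1 shRNA received doxycycline or vehicle (3 libraries a group), so both of their groups hold the shRNA construct. The labels do not say whether C1 and C2 are clones or guides, which promoters drive the ORFs, how long any treatment lasted, or whether replicate libraries came from different cultures. The p-values therefore measure the spread between these libraries, which may be technical. A doxycycline control without the shRNA was not analysed here. The libraries hold 5663610 to 13191675 reads recovered from the deposited values. Luminal epithelial marker genes summed to 1951 to 23656 normalized counts per library and mesenchymal ones to 3594 to 22192. Each line thus expressed some genes of both lists. In the human lines only 2 or 3 of the 5 luminal markers had a mean of at least 10 in a table, with KRT8 highest. In 4T1 that mean was reached by 2 of the 5 mesenchymal markers, with Vim highest.

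Integrins are cell-surface receptors made of an alpha and a beta subunit that link extracellular matrix to the actin or keratin cytoskeleton. Laminins are cross-shaped trimers of an alpha, a beta and a gamma chain that build basement membranes, the sheets on which epithelial cells sit. In breast epithelium, LAMA3 and LAMB3 are chains of the laminin of epithelial anchoring sites, and ITGA6 with ITGB4 forms its hemidesmosome receptor. ITGB1 pairs with most alpha subunits, including the collagen receptors and the laminin receptors ITGA3 and ITGA7. ITGAV pairs with ITGB1, ITGB3, ITGB5, ITGB6 and ITGB8 and binds RGD sequences in fibronectin, vitronectin and the latency peptide of TGF-beta.

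MYC binds the E-box hexamer CACGTG, so the promoters of the human genes were read for it. A promoter window of 300 bases, 250 before to 50 after the start site in RefSeq (GRCh38.p14), was found for 25 of the genes. Matches on either strand were counted for CACGTG and for the AP-1 motif TGANTCA, and no window held both. CACGTG stood in 1 of the 25 windows (4%), that of ITGA6, against 7.43% of 27305 promoters. TGANTCA stood in 2 of 25 (8%), those of ITGA5 and LAMA3, against 7.76% of all promoters. The GC box GGGCGG stood in 14 of 25 (56%), against 44.6% of all promoters. A match is a description of these letters and not a binding site. Shown are ITGA6, which moved down with MYC siRNA in both human lines, and ITGA5 and ITGB8, which moved up, with the E-box or AP-1 match in capitals and no such match in ITGB8. The windows are chr2:172427086-172427385, plus strand, for ITGA6, chr12:54419217-54419516, minus strand, for ITGA5, and chr7:20330650-20330949, plus strand, for ITGB8. In ITGA6 the E-box begins at position -101 from the start site, and in ITGA5 the AP-1 match begins at position -6.
ITGA6: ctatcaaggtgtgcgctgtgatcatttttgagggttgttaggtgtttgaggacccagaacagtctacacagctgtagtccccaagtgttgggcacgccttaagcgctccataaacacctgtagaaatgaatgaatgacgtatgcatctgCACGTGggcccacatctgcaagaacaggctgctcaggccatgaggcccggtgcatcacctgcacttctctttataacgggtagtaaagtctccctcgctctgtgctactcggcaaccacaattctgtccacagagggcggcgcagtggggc
ITGA5: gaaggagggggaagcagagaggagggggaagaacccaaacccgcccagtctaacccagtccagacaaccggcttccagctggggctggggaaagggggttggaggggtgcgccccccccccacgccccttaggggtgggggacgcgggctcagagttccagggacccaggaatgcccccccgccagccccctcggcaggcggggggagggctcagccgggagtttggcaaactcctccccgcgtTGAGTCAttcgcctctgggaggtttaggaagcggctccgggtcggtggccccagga
ITGB8: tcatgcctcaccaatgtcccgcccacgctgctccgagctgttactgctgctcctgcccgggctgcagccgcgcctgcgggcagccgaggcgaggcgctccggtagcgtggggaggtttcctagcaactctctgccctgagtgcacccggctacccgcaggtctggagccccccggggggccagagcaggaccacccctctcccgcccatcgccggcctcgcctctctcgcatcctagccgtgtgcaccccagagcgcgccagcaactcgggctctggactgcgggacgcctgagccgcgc

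The tables were normalized separately, so levels are compared within a table. Levels can be compared between genes only per length, so normalized counts were divided by the length of each gene's merged GENCODE exons in kilobases. In mock MDA-MB-436 cells, ITGB1 was highest at 593 (libraries 593 and 594) normalized counts per kilobase. LAMB3 followed at 484 (libraries 482 and 486) and ITGA3 at 454 (libraries 453 and 454). The next pair did not separate: ITGA6 stood at 275 (libraries 269.6 and 279.8) and ITGA2, a collagen receptor subunit, at 264 (libraries 258 and 271) per kilobase. In mock SUM159PT cells ITGB1 again led, at 464 (libraries 454 and 475), and ITGA3 came next at 222 (libraries 217 and 227) per kilobase. ITGA5, the fibronectin receptor subunit, and LAMC1, the most widely used gamma chain, had overlapping libraries there, at 173 (libraries 173 and 173) and 171 (libraries 167 and 175). LAMB3 took place 8 in SUM159PT, at 123 (libraries 120.0 and 126) per kilobase.

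Before the comparisons, the targeted genes were read, as log2 fold changes ± SE. MYC mRNA was lower with MYC siRNA in SUM159PT Tax-R cells (log2 fold change -0.87 ± 0.04, limma adjusted p = 3.97e-23) and by little in MDA-MB-436 Tax-R cells (-0.09 ± 0.03, limma adjusted p = 0.0144). In 4T1 the difference in Myc did not pass (-0.09 ± 0.04, limma adjusted p = 0.0683), so the MYC siRNA groups of MDA-MB-436 and 4T1 are named by their labels. The STING gene, listed as TMEM173, was lower with STING sgRNA in MDA-MB-436 (log2 fold change -1.85 ± 0.15, limma adjusted p = 3.69e-11) and in SUM159PT (-1.28 ± 0.11, limma adjusted p = 1.29e-12). It was higher with the STING ORF in MDA-MB-436 (4.47 ± 0.16, limma adjusted p = 2.9e-21) and in SUM159PT (4.37 ± 0.12, limma adjusted p = 2.89e-21). Tmem173 was lower with doxycycline in Py230 (-4.14 ± 0.09, limma adjusted p = 4e-22), as was Myc (-1.64 ± 0.05, limma adjusted p = 1.41e-18). In the MYC siRNA libraries TMEM173 was higher in both human lines, with log2 fold changes of 2.0 in MDA-MB-436 and 0.92 in SUM159PT.

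**Figure D1:**
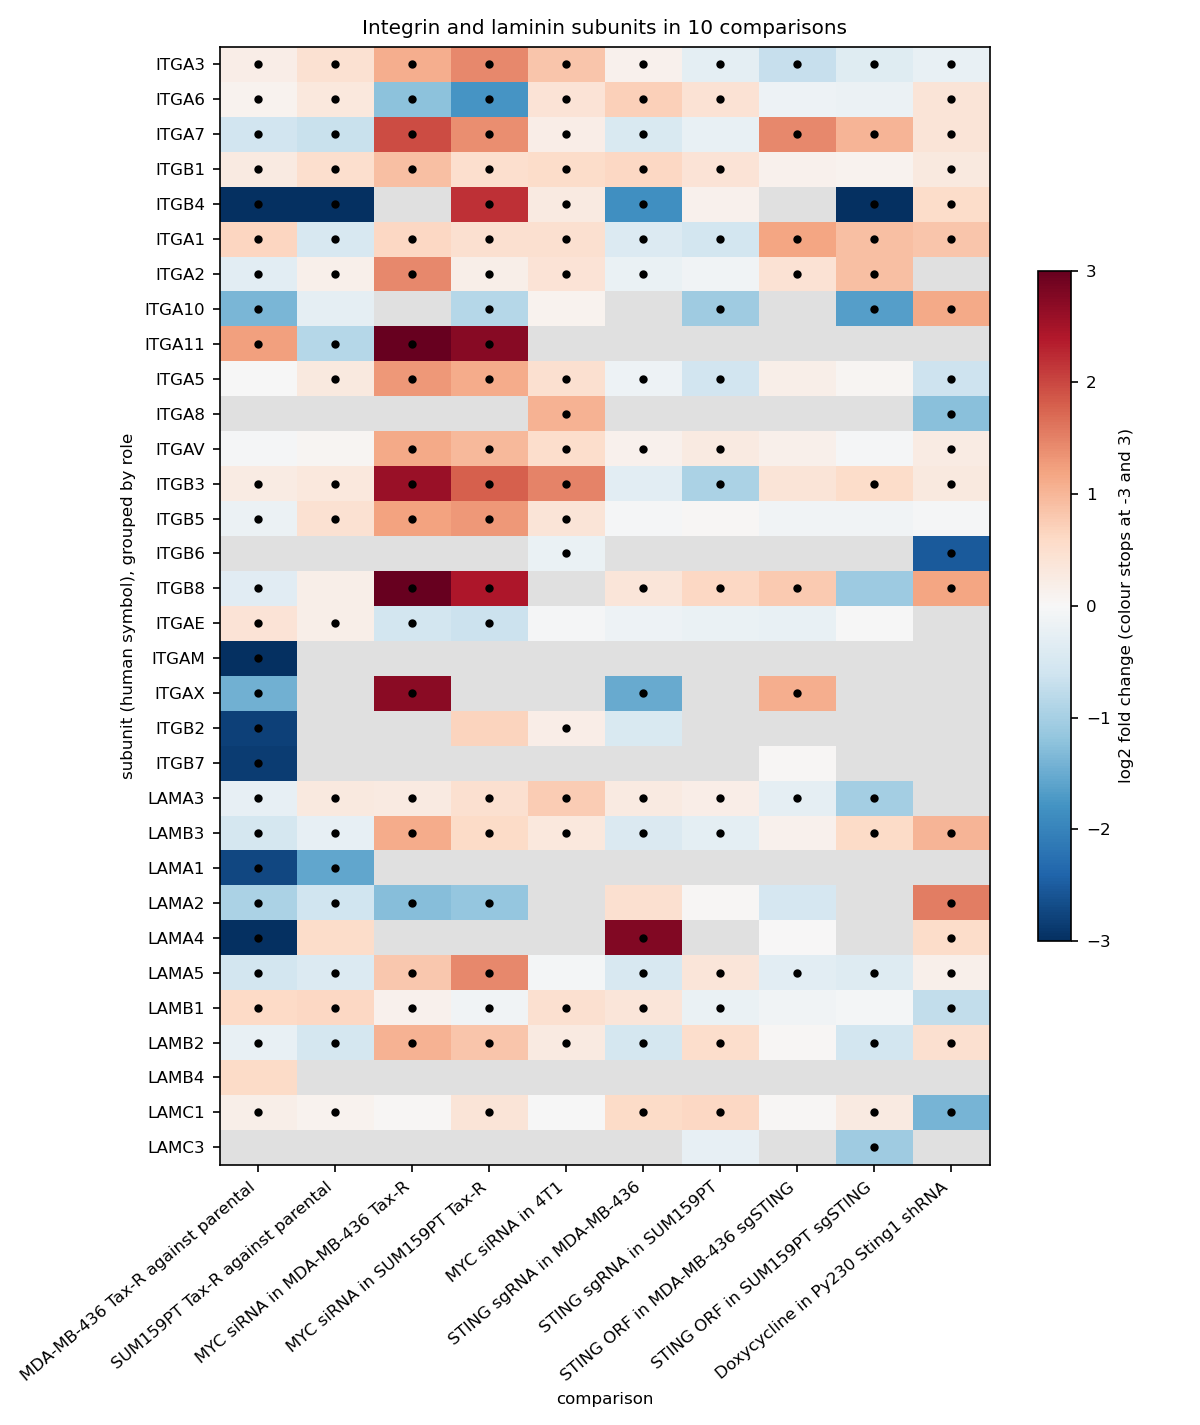
Log2 fold changes of 32 tested genes (rows, by role) in 10 comparisons (columns), each the first-named state over its control. Black dots mark a limma adjusted p below 0.05 and grey cells a table mean under 10 or no row. The 3 MYC siRNA columns hold mostly higher values, and ITGB4 is low in both Tax-R columns.

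Libraries labelled MYC siRNA held more mRNA of most tested integrin subunits and laminin chains in all 3 lines. In MDA-MB-436 Tax-R cells 18 of 22 tested genes rose and 3 fell, in SUM159PT Tax-R cells 18 of 24 rose and 5 fell, and in 4T1 cells 18 of 23 rose and 1 fell. Of all genes tested in MDA-MB-436, 67.7% were called, 34% higher and 33.7% lower. The shares were 69.5%, 35% and 34.5% in SUM159PT and 46.2%, 24.7% and 21.5% in 4T1. The median log2 fold change of the tested genes was 1.10 in MDA-MB-436, 0.74 in SUM159PT and 0.38 in 4T1, and that of all genes was -0.01, -0.01 and 0.00. A call is an adjusted p below 0.05 in limma on log2(value + 1), adjusted over all genes tested, and such fold changes understate the change of low genes. The siMYC2 and siMYC1 groups were also set against each other: limma, edgeR and DESeq2 each called 0 members in each line. At an unadjusted p below 0.05 there were 3 members in MDA-MB-436, 0 in SUM159PT and 1 in 4T1. Of all genes, 0.195% were called in MDA-MB-436, 0.0779% higher and 0.117% lower, and 0% in SUM159PT and 4T1. Libraries of 2 groups can also lie apart without a call. Those of siMYC2 and siMYC1 did not overlap for 15 of 22 members in MDA-MB-436, 8 of 24 in SUM159PT and 4 of 23 in 4T1. Here and below, groups that do not overlap are thus a description and not support, and the share over all genes was not computed. In bulk RNA, fewer cells of a type and less RNA per cell cannot be told apart.

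Library values are normalized counts, the authors' read counts divided by a size factor for each library. Subunits of the alpha v receptors rose in the human lines. ITGB8, which with ITGAV binds latent TGF-beta, had 94.7 and 97.7 with siMYC1, 98.6 and 108 with siMYC2, against 7.46 and 10.7 with siC in MDA-MB-436 Tax-R (log2 fold change 3.34 ± 0.18 (SE), limma adjusted p = 1.08e-15). In SUM159PT Tax-R, ITGB8 had 481 and 457 with siMYC1, 449 and 441 with siMYC2, against 78.8 and 88.99 with siC (log2 fold change 2.43 ± 0.08 (SE), limma adjusted p = 6.86e-30). In both lines the siMYC1 and siMYC2 libraries lay close together and far above siC, with no overlap. ITGB3, the vitronectin and fibrinogen receptor subunit, had 1018 and 1020 with siMYC1, 946 and 997 with siMYC2, against 182 and 150.5 with siC in MDA-MB-436 (log2 fold change 2.58 ± 0.06 (SE), limma adjusted p = 9.27e-24). ITGB3 had 1088 and 1137 with siMYC1, 1058 and 1091 with siMYC2, against 340.4 and 294 with siC in SUM159PT (log2 fold change 1.79 ± 0.06 (SE), limma adjusted p = 1.67e-30). Low in 4T1, Itgb3 had 23.1, 34.7 and 27.7 with siMYC1, 24.2, 34.5 and 21.9 with siMYC2, against 9.88, 6.02 and 12.4 with siC there (log2 fold change 1.49 ± 0.24 (SE), limma adjusted p = 1.36e-05), and again every siMYC library was above every siC library.

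ITGAV itself had 3299 and 3411 with siMYC1, 3353 and 3389 with siMYC2, against 1538 and 1527 with siC in MDA-MB-436 (log2 fold change 1.13 ± 0.03 (SE), limma adjusted p = 4.61e-23) and 5227 and 5240 with siMYC1, 5260 and 5194 with siMYC2, against 2499 and 2808 with siC in SUM159PT (log2 fold change 0.98 ± 0.04 (SE), limma adjusted p = 9.91e-28). The mouse gene Itgav had 2384, 2329 and 2308 with siMYC1, 2276, 2224 and 2227 with siMYC2, against 1594, 1598 and 1583 with siC in 4T1 (log2 fold change 0.53 ± 0.04 (SE), limma adjusted p = 2.37e-11). The groups did not overlap in any of the 3 lines. ITGB5, another vitronectin receptor subunit, rose by log2 fold changes of 1.20 in MDA-MB-436, 1.29 in SUM159PT and 0.38 in 4T1, and ITGA5 by 1.30, 1.12 and 0.48 in the same order. Itga8, an RGD receptor subunit of mesenchymal cells that was tested in 4T1 but not in the human lines, had 32.8, 23.7 and 23.3 with siMYC1, 20.6, 34.5 and 17.9 with siMYC2, against 8.08, 18.1 and 10.3 with siC (log2 fold change 1.04 ± 0.25 (SE), limma adjusted p = 0.00147), and 1 siMYC2 library lay within the siC range. Itgb6, the epithelial partner of Itgav, was the single member called lower in 4T1, with a log2 fold change of -0.21.

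Among the collagen receptors, ITGA11, the fibrillar collagen receptor of fibroblasts, had 36.1 and 26.6 with siMYC1, 34.1 and 34.9 with siMYC2, against 1.06 and 5.83 with siC in MDA-MB-436 (log2 fold change 3.17 ± 0.36 (SE), limma adjusted p = 7.55e-09), and 28.2 and 28.2 with siMYC1, 34.9 and 24.6 with siMYC2, against 2.88 and 4.14 with siC in SUM159PT (log2 fold change 2.74 ± 0.31 (SE), limma adjusted p = 6.21e-11). The siC libraries of both lines held a few counts of ITGA11, and every MYC siRNA library lay above them. ITGA2 rose in all 3 lines but by unequal amounts, with log2 fold changes of 1.44 in MDA-MB-436, 0.18 in SUM159PT and 0.42 in 4T1. ITGA1, which also binds collagens, rose by 0.62, 0.49 and 0.47 in these lines. ITGA10, the chondrocyte collagen receptor subunit, fell in SUM159PT (log2 fold change -0.85). The leukocyte subunit ITGAX had 27.3 and 36.1 with siMYC1, 37.9 and 42.3 with siMYC2, against 5.33 and 3.88 with siC in MDA-MB-436 (log2 fold change 2.71 ± 0.27 (SE), limma adjusted p = 7.53e-10), whereas PTPRC, the pan-leukocyte marker, was at 5.86 and 0.949 with siMYC1, 2.85 and 2.12 with siMYC2, against 0 and 1.94 with siC in the same libraries.

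Laminin receptors moved in both directions. ITGA3, the main laminin receptor alpha subunit of epithelial cells, had 6780 and 6738 with siMYC1, 6516 and 6478 with siMYC2, against 3134 and 3100 with siC in MDA-MB-436 (log2 fold change 1.09 ± 0.02 (SE), limma adjusted p = 2.78e-25). ITGA3 had 11960 and 11630 with siMYC1, 11700 and 11790 with siMYC2, against 4499 and 4141 with siC in SUM159PT (log2 fold change 1.45 ± 0.03 (SE), limma adjusted p = 2.1e-37), and the MYC siRNA groups did not overlap siC in either line. ITGA7, the laminin receptor of muscle, rose by 1.96 in MDA-MB-436, 1.39 in SUM159PT and 0.20 in 4T1, and Itga3 in 4T1 by 0.84. ITGA6 went the other way in human cells: it had 669 and 654 with siMYC1, 694 and 730.0 with siMYC2, against 1529 and 1677 with siC in MDA-MB-436 (log2 fold change -1.22 ± 0.05 (SE), limma adjusted p = 3.43e-19) and 251 and 224 with siMYC1, 254 and 221 with siMYC2, against 802 and 824 with siC in SUM159PT (log2 fold change -1.77 ± 0.07 (SE), limma adjusted p = 4e-26). In 4T1, Itga6 had 1932, 1872 and 1796 with siMYC1, 1907, 1846 and 1761 with siMYC2, against 1338, 1385 and 1422 with siC (log2 fold change 0.42 ± 0.04 (SE), limma adjusted p = 8.8e-09). ITGA6 was thus lower with MYC siRNA in every human library and Itga6 higher in every 4T1 library, a difference between lines that was not tested.

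**Figure D2:**
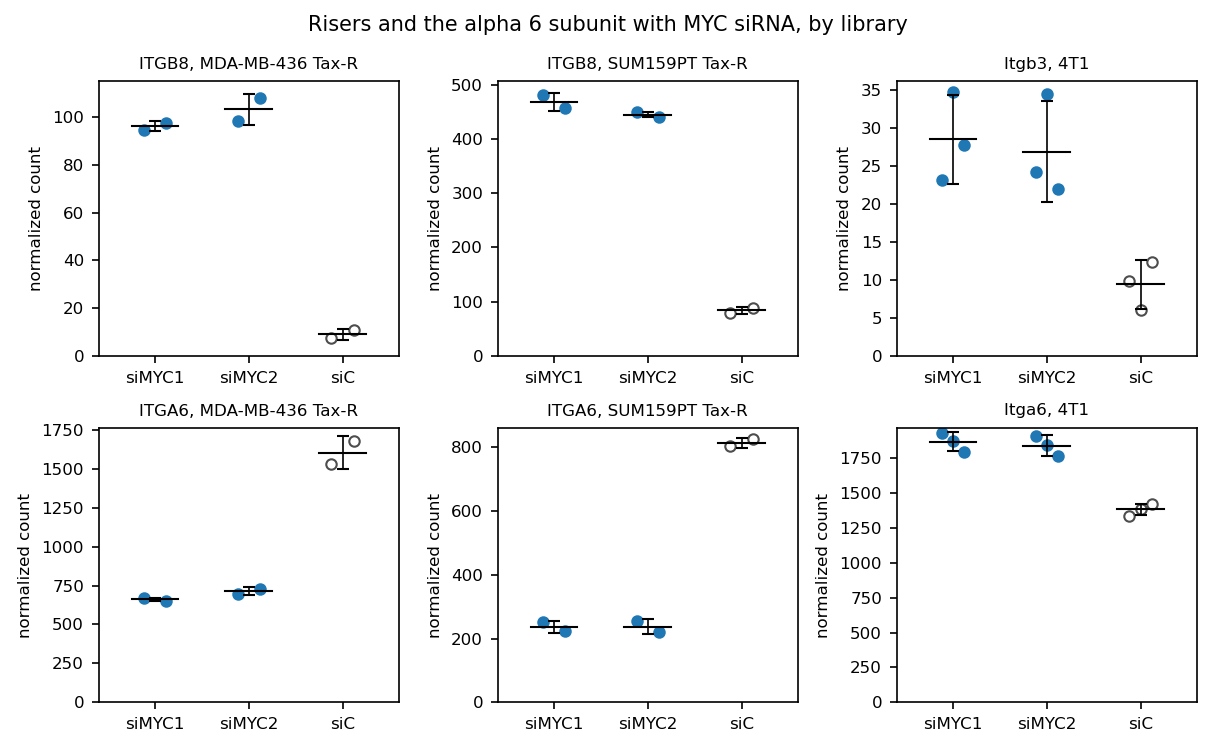
Normalized counts (y axis, from 0) of ITGB8 in the human Tax-R lines, ITGB3 in 4T1, and ITGA6 in all 3 lines, by siRNA group, with siMYC1 and siMYC2 left of siC. Points are libraries, lines the mean and bars the SD; filled points are MYC siRNA and open points control siRNA. ITGA6 is low with MYC siRNA in the human lines and high in 4T1.

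ITGB4, which holds ITGA6 in hemidesmosomes, moved up while ITGA6 moved down in SUM159PT. In SUM159PT Tax-R cells ITGB4 had 428 and 426 with siMYC1, 449 and 464 with siMYC2, against 108 and 86.9 with siC (log2 fold change 2.18 ± 0.08 (SE), limma adjusted p = 1.62e-27). In MDA-MB-436 Tax-R cells ITGB4 stayed under the mean of 10 and was not tested: 29 reads in all with siMYC1 and 25 with siMYC2 stood against 1 read with siC, 28.9-fold (95% exact counting interval 4.55 to 1120) and 25.2-fold (4.03 to 1010) higher. In 4T1, Itgb4 had 1413, 1310 and 1262 with siMYC1, 1288, 1355 and 1247 with siMYC2, against 1083, 1087 and 1062 with siC (log2 fold change 0.28 ± 0.05 (SE), limma adjusted p = 1.34e-05), a small shift without overlap. ITGB1 had 7566 and 7255 with siMYC1, 7261 and 7398 with siMYC2, against 3887 and 4036 with siC in MDA-MB-436 (log2 fold change 0.90 ± 0.02 (SE), limma adjusted p = 7.37e-23). ITGB1 rose by 0.50 in SUM159PT (limma adjusted p = 5.33e-18) and Itgb1 by 0.55 in 4T1 (limma adjusted p = 3.02e-12).

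The chains LAMA3 and LAMB3 rose in all 3 lines. LAMB3 had 2617 and 2564 with siMYC1, 2591 and 2625 with siMYC2, against 1192 and 1212 with siC in MDA-MB-436 (log2 fold change 1.11 ± 0.03 (SE), limma adjusted p = 4.79e-22). In SUM159PT, LAMA3 had 696 and 672 with siMYC1, 655 and 634 with siMYC2, against 477 and 476 with siC (log2 fold change 0.48 ± 0.06 (SE), limma adjusted p = 6.63e-10). Lama3 had 822, 789.9 and 712 with siMYC1, 739.8, 789 and 755 with siMYC2, against 535, 417 and 428 with siC in 4T1 (log2 fold change 0.75 ± 0.07 (SE), limma adjusted p = 7.29e-10). In all, LAMB3 rose by 1.11, 0.57 and 0.32 in MDA-MB-436, SUM159PT and 4T1, and LAMA3 by 0.27, 0.48 and 0.75. No library of a MYC siRNA overlapped siC for these chains in any line. Of the other chains, LAMA5, the broad epithelial alpha chain, rose in MDA-MB-436 (0.82) and SUM159PT (1.44) and had a log2 fold change of -0.07 in 4T1 that did not pass. LAMB2, its partner in mature basement membranes, rose by 1.04, 0.83 and 0.26. LAMC1 rose in SUM159PT (0.39) but had 0.03 in MDA-MB-436 (limma adjusted p = 0.35) and -0.01 in 4T1 (limma adjusted p = 0.865).

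LAMA2, the muscle laminin alpha chain, fell in both human lines. It had 8.79 and 8.54 with siMYC1, 9.48 and 9.52 with siMYC2, against 33.02 and 16.5 with siC in MDA-MB-436 (log2 fold change -1.28 ± 0.34 (SE), limma adjusted p = 0.00144) and 10.4 and 8.20 with siMYC1, 9.22 and 14.8 with siMYC2, against 25 and 23.8 with siC in SUM159PT (log2 fold change -1.15 ± 0.32 (SE), limma adjusted p = 0.0013). In MDA-MB-436 the siC libraries were unlike each other, and without siC replicate 1 the log2 fold change was -0.80 (limma adjusted p = 0.121). ITGAE, the integrin subunit of intraepithelial lymphocytes, fell as well, with log2 fold changes of -0.56 in MDA-MB-436 and -0.64 in SUM159PT, and Itgae had -0.04 in 4T1, which did not pass. Across lines, 20 of 21 genes tested in both human lines were called in both, 19 of them in 1 direction and 1, LAMB1, in opposite directions. Of all genes tested in both, 56.6% were called in both, 95% of these in 1 direction. MDA-MB-436 and 4T1 shared 15 called genes of 18 tested in both, 14 in 1 direction, and SUM159PT and 4T1 shared 16 of 21, 14 in 1 direction. Over all genes joined by symbol, 41% were called in both MDA-MB-436 and 4T1, 70.6% of these in 1 direction, and 41.2% in both SUM159PT and 4T1, 68.4% in 1 direction.

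**Figure D3:**
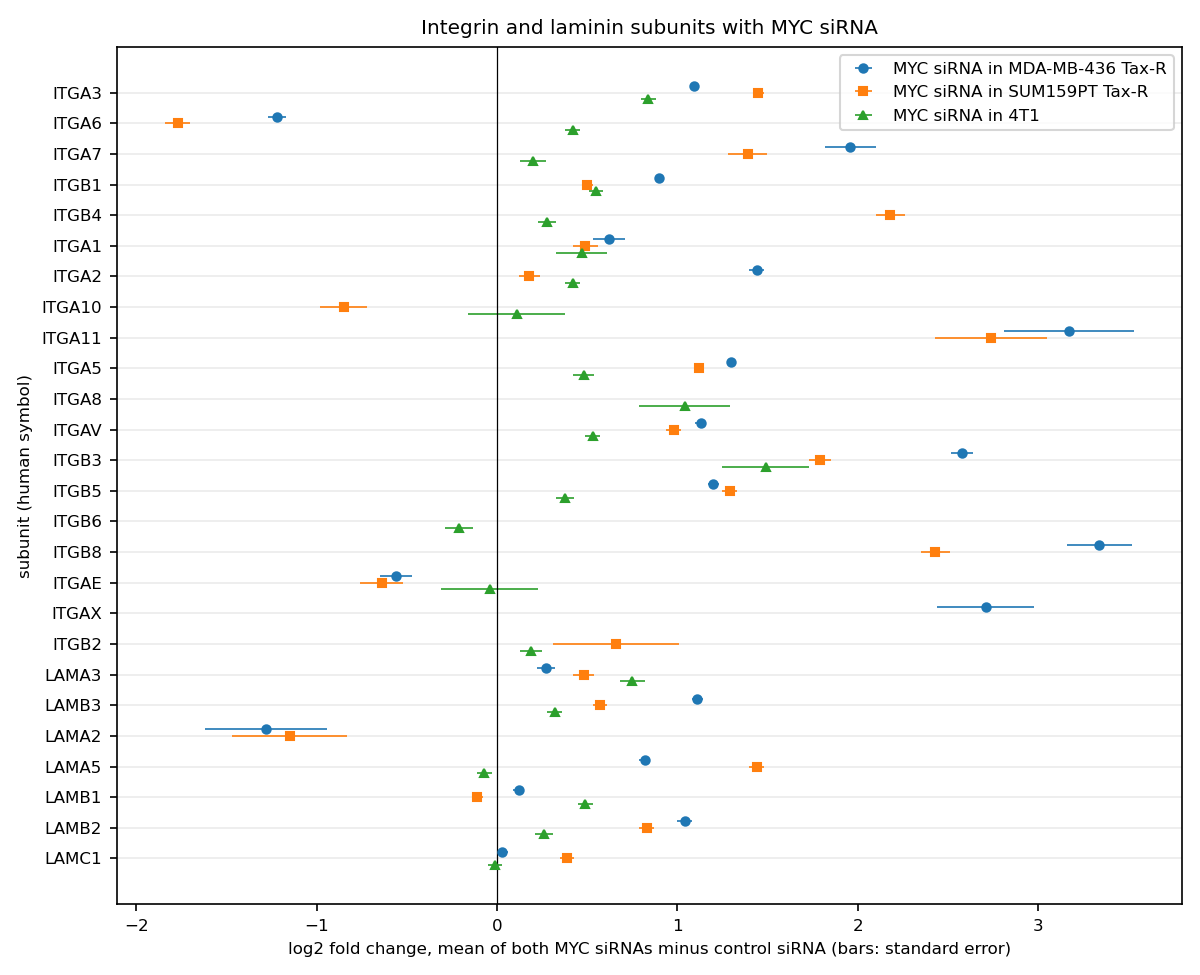
Log2 fold changes of tested genes (rows, by role) with MYC siRNA against control siRNA (x axis; bars are standard errors) in 3 lines, shown by colour and marker. Most points lie right of 0, and ITGA6, LAMA2, ITGA10 and ITGAE have the points farthest left of it.

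Genes that work with these receptors moved in the same libraries. Counts of such partners, here and below, describe the lists and stand beside the shares of all genes called, given for each comparison. Of 33 tested focal adhesion adaptors and kinases, 27 rose and 2 fell in MDA-MB-436, 23 rose and 6 fell in SUM159PT, and 25 rose and 2 fell in 4T1. Their median log2 fold changes were 0.50, 0.34 and 0.43, against -0.01, -0.01 and 0 over all genes. Examples in MDA-MB-436 are NEDD9, a docking protein of focal adhesion kinase (log2 fold change 3.98 ± 0.42, SE), and TLN1, talin, which activates integrins (1.96 ± 0.03). All 4 hemidesmosome partners rose in each of the 3 lines, among them COL17A1, a hemidesmosomal collagen (2.82 ± 0.23 in SUM159PT). Of the basement membrane partners of laminin, 7 of 8 rose in MDA-MB-436, 8 of 9 in SUM159PT and 7 of 11 in 4T1, with COL18A1 (1.84 ± 0.04) in MDA-MB-436 as an example. Of the matrix ligands of integrins, 6 of 10 rose and 3 fell in MDA-MB-436, where FN1, fibronectin, the ligand of ITGA5, had 1.98 ± 0.03 and FBN1, fibrillin, 3.78 ± 0.07. In SUM159PT 6 of 8 rose and 2 fell, and in 4T1 8 of 9 rose and 0 fell, Tnc (3.25 ± 0.07) among them. Non-integrin laminin receptors had 4 higher and 1 lower of 5 in MDA-MB-436, 3 higher and 1 lower of 4 in SUM159PT and 4 higher and 0 lower of 5 in 4T1. Cell-surface ligands had 4 higher and 1 lower of 6, 4 higher and 1 lower of 6 and 1 higher and 2 lower of 5 in the same lines. The fibroblast marker sum also moved: it was 288.5 to 294 with siMYC1, 279.8 to 308.9 with siMYC2, against 60.72 to 74.75 with siC in MDA-MB-436, mostly from PDGFRA, while DCN and LUM were at 0 to 2.12 normalized counts. In SUM159PT it was 582 to 605.7 with siMYC1, 601.7 to 638.3 with siMYC2, against 272.1 to 289.4 with siC, from DCN at 247 and 278 with siMYC1, 255 and 264 with siMYC2, against 152 and 148 with siC and PDGFRA at 309 and 302 with siMYC1, 312 and 342 with siMYC2, against 114 and 109 with siC, with LUM at 2.05 to 16.4. The endothelial sum was 27.52 to 39.07 with siMYC1, 36.99 to 41.27 with siMYC2, against 13.84 to 15.53 with siC in MDA-MB-436 and 138.5 to 144.2 with siMYC1, 125.1 to 154.8 with siMYC2, against 55.76 to 66.23 with siC in SUM159PT. It was mostly PECAM1, with CDH5 and TEK at 0 to 1.06 in MDA-MB-436 and 0 to 2.09 in SUM159PT. The leukocyte sum was 22.77 to 28.32 with siMYC1, 17.07 to 25.4 with siMYC2, against 33.01 to 46.87 with siC in MDA-MB-436 and 42.81 to 44.93 with siMYC1, 35.86 to 38.43 with siMYC2, against 68.27 to 71.4 with siC in SUM159PT. Its gene with the highest mean over the libraries was CSF1R, at 19.72 in MDA-MB-436 and 33.79 in SUM159PT. In 4T1 the mesenchymal sum was 8260 to 8742 with siMYC1, 7669 to 8278 with siMYC2, against 3969 to 4306 with siC, nearly all Vim, with Cdh2 and Snai2 at 0 to 1.82 in every library. The part of these markers in the results was not tested.

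Tax-R cells were set against parental cells. In MDA-MB-436, 9 of 30 tested genes were higher in Tax-R cells and 18 lower, and in SUM159PT 12 of 25 were higher and 9 lower. Of all genes tested, 54.6% were called in MDA-MB-436, 27.7% higher and 26.9% lower, and 45.7% in SUM159PT, 23.5% higher and 22.1% lower. ITGB4 had 17.02 and 17.4 in Tax-R cells, against 146 and 144 in parental cells in MDA-MB-436 (log2 fold change -3.0 ± 0.16 (SE), limma adjusted p = 5.16e-08) and 15.3 and 13.9 in Tax-R cells, against 156 and 154 in parental cells in SUM159PT (log2 fold change -3.33 ± 0.18 (SE), limma adjusted p = 5.63e-07). Tax-R libraries of both lines thus held a small part of the parental ITGB4 level, with no overlap. Its partner ITGA6 had 2464 and 2460 in Tax-R cells, against 2244 and 2359 in parental cells in MDA-MB-436 (log2 fold change 0.10 ± 0.04 (SE), limma adjusted p = 0.0398) and 2122 and 2102 in Tax-R cells, against 1685 and 1726 in parental cells in SUM159PT (log2 fold change 0.31 ± 0.04 (SE), limma adjusted p = 0.000105). The small ITGA6 difference in MDA-MB-436 did not pass with edgeR on the recovered reads (adjusted p = 0.0523) or with the Tax-R libraries counted as 1 (limma adjusted p = 0.199). It was also lost without parental replicate 1 (0.06, limma adjusted p = 0.112), Tax-R replicate 1 (limma adjusted p = 0.203) or Tax-R replicate 2 (limma adjusted p = 0.19).

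**Figure D4:**
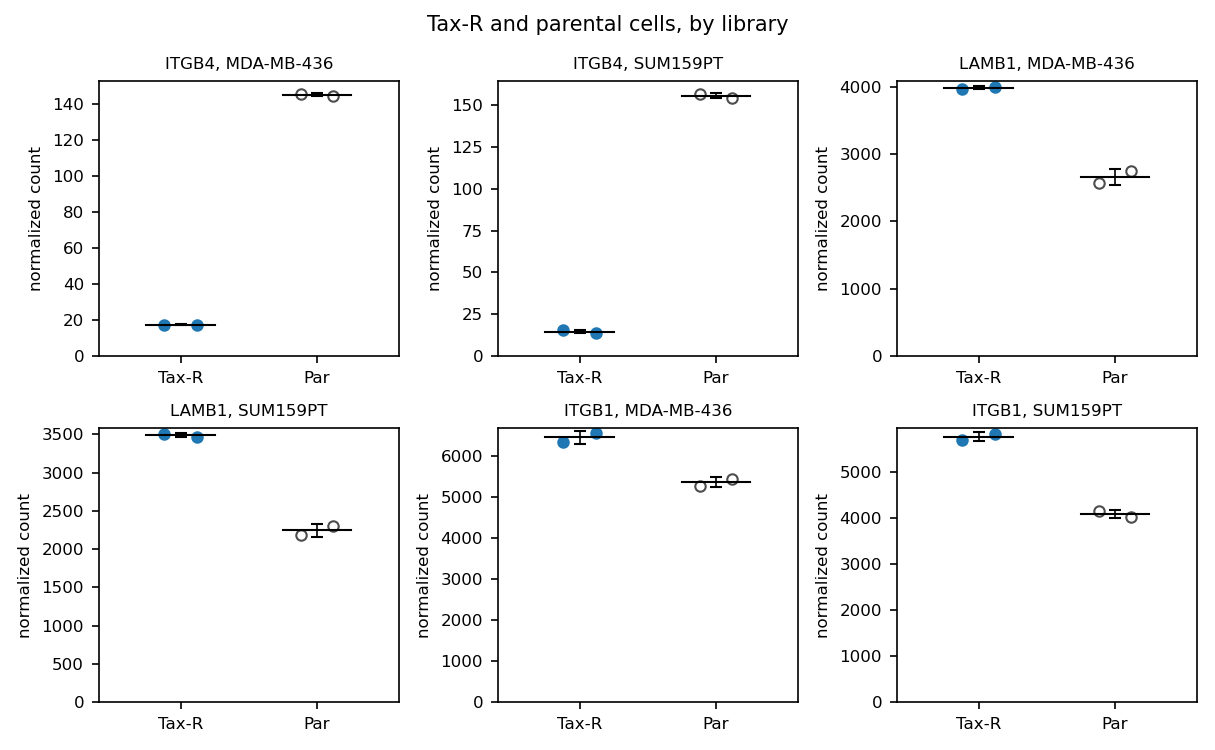
Normalized counts (y axis, from 0) of ITGB4, LAMB1 and ITGB1 in Tax-R (filled) and parental (open) libraries of MDA-MB-436 and SUM159PT; lines are means and bars SDs. ITGB4 is low in Tax-R cells of both lines, whereas LAMB1 and ITGB1 are higher there.

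ITGB1 was higher in Tax-R cells of both lines. It had 6354 and 6578 in Tax-R cells, against 5281 and 5451 in parental cells in MDA-MB-436 (log2 fold change 0.27 ± 0.04 (SE), limma adjusted p = 9.76e-05) and 5692 and 5831 in Tax-R cells, against 4145 and 4027 in parental cells in SUM159PT (log2 fold change 0.50 ± 0.04 (SE), limma adjusted p = 5.5e-06). ITGAV did not pass in either line, with log2 fold changes of -0.03 (limma adjusted p = 0.532) and 0.05 (limma adjusted p = 0.312). Of the laminin chains, LAMB3 was lower in Tax-R cells of both, with -0.53 and -0.25, and LAMA3 had -0.24 in MDA-MB-436 and 0.29 in SUM159PT. Without parental replicate 1, the LAMA3 value in MDA-MB-436 was -0.21 (limma adjusted p = 0.0542). LAMC1 was higher by 0.18 in MDA-MB-436 and by 0.11 in SUM159PT, and the SUM159PT call did not hold with edgeR (adjusted p = 0.0541) or without parental replicate 1 (0.09, limma adjusted p = 0.11), Tax-R replicate 1 (limma adjusted p = 0.245) or Tax-R replicate 2 (limma adjusted p = 0.14).

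Laminin alpha chains of embryonic and vascular basement membranes were low in MDA-MB-436 Tax-R cells. LAMA1, the embryonic chain, had 2.002 and 3.08 in Tax-R cells, against 31.5 and 15.4 in parental cells in MDA-MB-436 (log2 fold change -2.72 ± 0.40 (SE), limma adjusted p = 0.000149) and 9.21 and 9.90 in Tax-R cells, against 27.4 and 32.4 in parental cells in SUM159PT (log2 fold change -1.55 ± 0.26 (SE), limma adjusted p = 0.00109). LAMA4, the endothelial chain, had 7.01 and 11.3 in Tax-R cells, against 85.2 and 81.9 in parental cells in MDA-MB-436 (log2 fold change -3.09 ± 0.25 (SE), limma adjusted p = 1.26e-06), and its value in SUM159PT, 0.54, did not pass. Both Tax-R libraries lay below both parental libraries for each of these calls. The endothelial marker sum was 143.1 to 172.4 in Tax-R cells, against 225.5 to 251.4 in parental cells in MDA-MB-436. It was mostly PECAM1 there (mean 189.5 over the libraries), the only 1 of 4 listed markers with a mean of at least 10. In SUM159PT the sum was 100.2 to 111.9 in Tax-R cells, against 337.8 to 354.8 in parental cells. The part of these markers in the LAMA1 and LAMA4 values was not tested. LAMB1, the beta chain of early basement membranes, had 3976 and 4003 in Tax-R cells, against 2573 and 2748 in parental cells in MDA-MB-436 (log2 fold change 0.59 ± 0.04 (SE), limma adjusted p = 2.87e-07) and 3506 and 3468 in Tax-R cells, against 2188 and 2306 in parental cells in SUM159PT (log2 fold change 0.63 ± 0.04 (SE), limma adjusted p = 1.38e-06). LAMA5 was lower in Tax-R cells of both lines (-0.55 in MDA-MB-436, -0.41 in SUM159PT), as were LAMB2 (-0.23, -0.53), LAMA2 (-0.96, -0.59) and ITGA7 (-0.58, -0.67). ITGA3 (0.20, 0.45) and ITGB3 (0.24, 0.31) were higher in both, the ITGB3 calls being lost with DESeq2 (adjusted p = 0.168 in MDA-MB-436 and 0.0807 in SUM159PT). The SUM159PT call of LAMA2 was lost without the filter on low values (limma adjusted p = 0.0641). ITGA10 had 56.05 and 45.1 in Tax-R cells, against 153 and 114 in parental cells in MDA-MB-436 (log2 fold change -1.37 ± 0.17 (SE), limma adjusted p = 3.82e-05) and -0.26 in SUM159PT, which did not pass. ITGA11 had 17.02 and 15.4 in Tax-R cells, against 10.2 and 3.85 in parental cells in MDA-MB-436 (log2 fold change 1.22 ± 0.40 (SE), limma adjusted p = 0.0225), a call that was lost without parental replicate 2 (0.61, limma adjusted p = 0.107) and without Tax-R replicate 1 (1.15, limma adjusted p = 0.0534). It was also lost with DESeq2 (1.17, adjusted p = 0.246) and without the filter on low values (1.22, limma adjusted p = 0.105).

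Of 5 leukocyte subunits tested in MDA-MB-436, 4 were lower in Tax-R cells and ITGAE was higher, beside 26.9% of all genes lower and 27.7% higher. ITGAM, ITGB2 and ITGB7 reached the mean of 10 only through the parental libraries, so this count is a description and not support. ITGAE had 386 and 361 in Tax-R cells, against 267 and 294 in parental cells in MDA-MB-436 (log2 fold change 0.41 ± 0.07 (SE), limma adjusted p = 0.000357), and in SUM159PT it had 0.18, a call lost with edgeR (adjusted p = 0.07), with the replicate block (limma adjusted p = 0.0548) and when any 1 of the 4 libraries was left out (limma adjusted p = 0.0675 to 0.181). ITGAM, of the complement receptor, had 2.002 and 0 in Tax-R cells, against 40.9 and 31.8 in parental cells (log2 fold change -4.42 ± 0.49 (SE), limma adjusted p = 1.65e-05), or 2 reads against 81, which is 36.3-fold lower (95% exact counting interval 9.73 to 305). ITGB2, the shared beta subunit of leukocyte integrins, had 1.001 and 5.13 in Tax-R cells, against 27.3 and 20.2 in parental cells (log2 fold change -2.81 ± 0.48 (SE), limma adjusted p = 0.000477). That call was lost without parental replicate 1 (-2.60, limma adjusted p = 0.0745) or parental replicate 2 (-3.01, limma adjusted p = 0.0528). ITGB7, the gut-homing beta subunit of lymphocytes, had 4.004 and 1.03 in Tax-R cells, against 24.7 and 19.3 in parental cells (log2 fold change -2.84 ± 0.44 (SE), limma adjusted p = 0.000225). ITGAX had 22.02 and 26.7 in Tax-R cells, against 86.1 and 53.95 in parental cells (log2 fold change -1.45 ± 0.23 (SE), limma adjusted p = 0.000296), so the libraries of the groups were apart for each of these 4. PTPRC was 242 and 376 in Tax-R cells, against 1982 and 2113 in parental cells and made up most of a leukocyte sum of 288.2 to 423.7 in Tax-R cells, against 2036 to 2153 in parental cells. In these libraries LYZ, CD68 and CD3E were at 0 to 4.004 normalized counts. Of the listed markers, 2 had a mean of at least 10, and beyond PTPRC the rest of the sum was small and similar in both groups. The part of leukocyte RNA was not tested. In SUM159PT the leukocyte sum was 28.71 to 35.8 in Tax-R cells, against 533.6 to 556 in parental cells, again mostly PTPRC.

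The sum of basal epithelial markers moved in the same direction as ITGB4. Their sum was 542.5 to 651.5 in Tax-R cells, against 1669 to 1703 in parental cells in MDA-MB-436 and 76.71 to 85.14 in Tax-R cells, against 611.9 to 666.7 in parental cells in SUM159PT. In MDA-MB-436 the sum was mostly TP63, at a mean of 977 over the libraries. Of the 5 listed markers, 2 had a mean of at least 10 there. KRT14, a small part of that sum, was 0 and 0 in Tax-R cells, against 19.6 and 14.4 in parental cells. In SUM159PT 4 of the 5 reached that mean, TP63 being highest at 198.5. The part of these markers in the ITGB4 values was not tested. Among the cell-surface ligands of integrins, 5 of 6 were lower in MDA-MB-436 Tax-R cells and 4 of 6 in SUM159PT, and none was higher. VCAM1, a ligand of leukocyte integrins, had -6.34 ± 0.22 in MDA-MB-436 and -6.22 ± 0.60 in SUM159PT, and ICAM1 had -1.10 ± 0.05 in MDA-MB-436. NID1, nidogen, which ties laminin to collagen IV, had -9.15 ± 0.29 in MDA-MB-436 and -3.99 ± 0.10 in SUM159PT. Focal adhesion genes split, with 7 higher and 12 lower of 33 in MDA-MB-436 and 15 higher and 8 lower in SUM159PT. Their median log2 fold changes were -0.02 and 0.05, against 0.01 over all genes in each line. NEDD9 was lower in Tax-R cells of both lines, with -4.14 ± 0.20 in MDA-MB-436 and -5.19 ± 0.14 in SUM159PT. Hemidesmosome partners had 0 higher and 1 lower of 4 in MDA-MB-436 and 3 higher and 1 lower of 4 in SUM159PT, and basement membrane partners 5 higher and 6 lower of 14 and 5 higher and 4 lower of 12. Non-integrin laminin receptors had 0 higher and 3 lower of 5 and 1 higher and 2 lower of 5, and matrix ligands 3 higher and 6 lower of 12 and 2 higher and 6 lower of 12. In all, 20 of 25 genes tested in both lines were called in both, 14 in 1 direction and 6 in opposite directions. Of all genes tested in both, 31.1% were called in both, 82.3% of these in 1 direction.

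STING sgRNA went with higher LAMC1, ITGA6 and ITGB1 and lower LAMB3 in both human lines. In MDA-MB-436, 10 of 24 tested genes rose and 9 fell, and in SUM159PT 9 of 23 rose and 7 fell, beside 47.8% of all genes called in MDA-MB-436 (24.8% higher, 23% lower) and 39.1% in SUM159PT (19.3% higher, 19.8% lower). LAMC1 had 2285 and 2037 in C1, 2062 and 2206 in C2, against 1431 and 1447 in mock cells in MDA-MB-436 (log2 fold change 0.58 ± 0.04 (SE), limma adjusted p = 6.46e-12) and 2107 and 2059 in C1, 2288 and 2345 in C2, against 1401 and 1471 in mock cells in SUM159PT (log2 fold change 0.61 ± 0.04 (SE), limma adjusted p = 1.21e-16). All C1 and C2 libraries lay above the mock libraries for LAMC1 in both lines. LAMB3 had 1780 and 1757 in C1, 1618 and 1574 in C2, against 2259 and 2279 in mock cells in MDA-MB-436 (log2 fold change -0.43 ± 0.04 (SE), limma adjusted p = 1.82e-10) and 529 and 514 in C1, 425 and 426 in C2, against 592 and 562 in mock cells in SUM159PT (log2 fold change -0.29 ± 0.06 (SE), limma adjusted p = 0.000125). For LAMB3 the C2 libraries were lowest and mock cells highest in both lines, and in SUM159PT the difference did not pass for C1 alone (-0.15, limma adjusted p = 0.129). LAMA3 rose by 0.26 in MDA-MB-436 and 0.19 in SUM159PT, the SUM159PT call being lost without mock replicate 1 (0.15, limma adjusted p = 0.181), without C1 replicate 2 (0.17, 0.066) and without C2 replicate 2 (0.17, 0.0736).

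The receptors of these chains divided. ITGA6 had 2860 and 2877 in C1, 2887 and 3088 in C2, against 1761 and 1828 in mock cells in MDA-MB-436 (log2 fold change 0.71 ± 0.04 (SE), limma adjusted p = 1.3e-15) and 717 and 691 in C1, 831 and 848 in C2, against 539 and 595 in mock cells in SUM159PT (log2 fold change 0.44 ± 0.06 (SE), limma adjusted p = 1.51e-08). ITGB1 rose by 0.62 in MDA-MB-436 (limma adjusted p = 2.26e-16) and 0.41 in SUM159PT (limma adjusted p = 7.81e-13). ITGB4 had 12.03 and 11.5 in C1, 11 and 15.3 in C2, against 53.7 and 41.5 in mock cells in MDA-MB-436 (log2 fold change -1.85 ± 0.27 (SE), limma adjusted p = 1.46e-06) and 34.2 and 48.2 in C1, 37.03 and 27.8 in C2, against 41.96 and 25.9 in mock cells in SUM159PT (log2 fold change 0.13 ± 0.22 (SE), limma adjusted p = 0.694). ITGB4 thus fell in MDA-MB-436, while in SUM159PT the groups overlapped and the value did not pass; the difference between lines was not tested. ITGAV rose by 0.14 and 0.27, and the MDA-MB-436 call was lost without mock replicate 1 (0.15, limma adjusted p = 0.0682) or mock replicate 2 (0.13, limma adjusted p = 0.105).

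LAMA4 had 60.1 and 60.5 in C1, 62 and 63.4 in C2, against 11.7 and 5.54 in mock cells in MDA-MB-436 (log2 fold change 2.78 ± 0.23 (SE), limma adjusted p = 6.42e-11), with all sgSTING libraries above the mock libraries. The endothelial sum was 90.21 to 97.03 in C1, 99 to 127.9 in C2, against 69.23 to 74.17 in mock cells in these libraries, nearly all PECAM1, with KDR and TEK at 0 to 2.09, and its part in the LAMA4 value was not tested. LAMA1 was under the mean of 10 there: it had 0 reads in C1 and 0 in C2, against 60 in mock cells, at least 18.5-fold and 18.7-fold lower with a floor of 3 reads over a group. ITGAX had 10.02 and 19.8 in C1, 14 and 9.21 in C2, against 38.1 and 37.8 in mock cells in MDA-MB-436 (log2 fold change -1.51 ± 0.29 (SE), limma adjusted p = 9.33e-05). PTPRC moved the other way in these libraries, at 1219 and 1235 in C1, 1312 and 1274 in C2, against 1015 and 1028 in mock cells. In SUM159PT, ITGA10 had 24.7 and 35.6 in C1, 34.98 and 26.8 in C2, against 61.03 and 67.2 in mock cells (log2 fold change -1.06 ± 0.20 (SE), limma adjusted p = 4.44e-05), with all 4 sgSTING libraries below mock. ITGA1 fell in both lines (-0.41 in MDA-MB-436, -0.55 in SUM159PT), the MDA-MB-436 call being lost without the filter on low values (limma adjusted p = 0.128), as did ITGA5 (-0.16, -0.57). ITGB3 had 74.02 and 89.1 in C1, 85.4 and 84.4 in C2, against 156 and 165 in mock cells in SUM159PT (log2 fold change -0.94 ± 0.12 (SE), limma adjusted p = 4.87e-08) and a log2 fold change of -0.32 in MDA-MB-436 that did not pass. LAMA5 and LAMB2, which form a laminin together, fell in MDA-MB-436 (-0.49 and -0.53) and rose in SUM159PT (0.36 and 0.52). The basal epithelial sum was 673.6 to 686.5 in C1, 653 to 664.1 in C2, against 1258 to 1270 in mock cells in MDA-MB-436, where KRT17 was 113 and 122 in C1, 97 and 94.1 in C2, against 706 and 688 in mock cells. KRT17 made up most of that fall, and TP63, the listed marker with the highest mean (548.4 over the libraries), most of the rest of the sum. In SUM159PT the same sum was 587 to 600.7 in C1, 533.9 to 538.7 in C2, against 318.5 to 320.6 in mock cells, and its part in these results was not tested. Also in SUM159PT, the endothelial sum was 160.4 to 167.9 in C1, 159.6 to 170.8 in C2, against 45.12 to 53.4 in mock cells, mostly KDR, with CDH5 at 0 to 2.06. The leukocyte sum there was 11.53 to 14.24 in C1, 8.238 to 12.34 in C2, against 109.7 to 131.5 in mock cells, with PTPRC at 2.85 and 3.15 in C1, 4.12 and 0 in C2, against 92.5 and 115 in mock cells. The part of these markers was not tested.

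The C2 group was also set against C1. In SUM159PT 11 of 23 genes were called in C2 against C1, 4 higher and 7 lower, beside 19.9% of all genes (8.53% higher, 11.4% lower). ITGAE (log2 fold change -0.30 ± 0.11 (SE), limma adjusted p = 0.045) and LAMB3 (log2 fold change -0.29 ± 0.07 (SE), limma adjusted p = 0.00236) were lower in C2, and ITGA6 was higher in C2 by 0.25 (limma adjusted p = 0.00362). Leaving out C1 replicate 1, C1 replicate 2, C2 replicate 1 or C2 replicate 2 left 3, 3, 4 and 1 calls. In MDA-MB-436, 2 of 24 were called, beside 0.797% of all genes (0.131% higher, 0.666% lower). They were LAMA5 (-0.21) and ITGA3 (-0.17), both lower in C2; 1 call was made without C1 replicate 1 and 0 without C2 replicate 2. Of 21 genes tested in both lines against mock cells, 14 were called in both, 10 in 1 direction and 4 in opposite directions. Of all genes tested in both, 23.5% were called in both lines, 78.6% of these in 1 direction. Among the partners, 6 of 9 basement membrane genes fell in MDA-MB-436, AGRN (-0.71 ± 0.04) among them, and 0 rose. In SUM159PT 6 of 12 rose and 4 fell, with FRAS1 (2.43 ± 0.12) as an example of a rise. TNS4, a tensin of epithelial adhesions, fell in both, with -2.11 ± 0.28 in MDA-MB-436 and -3.64 ± 0.44 in SUM159PT. Focal adhesion genes had 10 higher and 10 lower of 33 in MDA-MB-436 and 11 higher and 12 lower of 32 in SUM159PT. Their median log2 fold changes were -0.02 and -0.01, against 0.01 and 0 over all genes. Hemidesmosome partners had 1 higher and 3 lower of 4 in MDA-MB-436 and 1 higher and 2 lower of 3 in SUM159PT, and non-integrin laminin receptors 0 higher and 3 lower of 5 and 2 higher and 2 lower of 5. Matrix ligands had 6 higher and 2 lower of 10 and 4 higher and 4 lower of 8, and cell-surface ligands 0 higher and 1 lower of 6 and 1 higher and 3 lower of 5.

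The STING ORF was compared with the GFP ORF in sgSTING cells. ITGA7 and ITGA1 rose with the STING ORF in both lines, and LAMA3 and ITGA3 fell. In MDA-MB-436, 6 of 23 tested genes rose and 3 fell, and in SUM159PT 7 of 22 rose and 7 fell, beside 21.1% of all genes called in MDA-MB-436 (9.2% higher, 11.9% lower) and 26% in SUM159PT (13.2% higher, 12.8% lower). The 9 calls in MDA-MB-436 became 4 without STING ORF replicate 2, and the 14 in SUM159PT became 9 without GFP replicate 1. ITGA7 had 125 and 96.2 with the STING ORF, against 38.5 and 41.97 with the GFP ORF in MDA-MB-436 (log2 fold change 1.43 ± 0.19 (SE), limma adjusted p = 1.68e-06) and 91.8 and 86.4 with the STING ORF, against 47.95 and 38.7 with the GFP ORF in SUM159PT (log2 fold change 1.03 ± 0.19 (SE), limma adjusted p = 2e-04). ITGA1 had 155 and 161 with the STING ORF, against 65.2 and 72.5 with the GFP ORF in MDA-MB-436 (log2 fold change 1.19 ± 0.16 (SE), limma adjusted p = 9.75e-07) and rose by 0.91 in SUM159PT (limma adjusted p = 5.47e-05). Both libraries with the STING ORF were above both with the GFP ORF for these genes. ITGAX had 24.6 and 21.4 with the STING ORF, against 7.34 and 14.3 with the GFP ORF in MDA-MB-436 (log2 fold change 1.08 ± 0.36 (SE), limma adjusted p = 0.0295), a call lost without GFP replicate 1 (0.65, limma adjusted p = 0.335), STING replicate 1 (0.99, 0.141) or STING replicate 2 (1.18, 0.0893), and also without the filter on low values (limma adjusted p = 0.189) and with quantile normalization (0.0538). ITGA2 rose by 0.43 and 0.90, in MDA-MB-436 and SUM159PT, and ITGA3 fell in both, with log2 fold changes of -0.70 and -0.36.

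LAMA3 had 211 and 186 with the STING ORF, against 408 and 397 with the GFP ORF in SUM159PT (log2 fold change -1.02 ± 0.11 (SE), limma adjusted p = 1.66e-07) and the groups did not overlap. In MDA-MB-436 LAMA3 had 944 and 908 with the STING ORF, against 1139 and 1094 with the GFP ORF (log2 fold change -0.27 ± 0.08 (SE), limma adjusted p = 0.0124), and that call was lost without GFP replicate 1 (-0.24, limma adjusted p = 0.0652), STING replicate 1 (-0.30, 0.0527) or STING replicate 2 (-0.24, 0.175). LAMB3 had 1036 and 903 with the STING ORF, against 655 and 635 with the GFP ORF in SUM159PT (log2 fold change 0.58 ± 0.09 (SE), limma adjusted p = 1.89e-05) and 0.14 in MDA-MB-436, which did not pass. LAMC1 rose in SUM159PT by 0.28, a call lost without GFP replicate 1 (0.27, limma adjusted p = 0.188) or GFP replicate 2 (0.28, 0.148), and had 0.03 in MDA-MB-436.

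ITGB4 had 5.99 and 1.07 with the STING ORF, against 34.9 and 28.3 with the GFP ORF in SUM159PT (log2 fold change -3.09 ± 0.47 (SE), limma adjusted p = 2.12e-05), with both STING ORF libraries at a few counts. Without the filter on low values its limma adjusted p was 0.0564. ITGA10 had 9.98 and 4.27 with the STING ORF, against 23.5 and 22.6 with the GFP ORF (log2 fold change -1.66 ± 0.40 (SE), limma adjusted p = 0.00268) and was likewise not called without that filter (limma adjusted p = 0.0913). LAMC3, a rarely used gamma chain, had 11.98 and 6.40 with the STING ORF, against 20.9 and 17.9 with the GFP ORF (log2 fold change -1.06 ± 0.38 (SE), limma adjusted p = 0.0397), and was not called without GFP replicate 1 (-0.95, limma adjusted p = 0.296), GFP replicate 2 (-1.16, 0.149) or STING replicate 2 (-0.65, 0.205), without the filter (limma adjusted p = 0.171) or with quantile normalization (0.0785). The basal epithelial sum was 118.4 to 132.8 with the STING ORF, against 339.5 to 374.9 with the GFP ORF in these SUM159PT libraries, and its part in the ITGB4 value was not tested. ITGA6, ITGB1 and ITGAV did not pass in either line, with log2 fold changes of -0.15, 0.12 and 0.16 in MDA-MB-436 and -0.18, 0.10 and -0.03 in SUM159PT. In both lines the standard error of these values was between 0.07 and 0.09. ITGB1 passed without GFP replicate 2 in MDA-MB-436 (0.19, limma adjusted p = 0.0298) and without STING replicate 1 in SUM159PT (0.17, 0.00381), and ITGAV without GFP replicate 2 in MDA-MB-436 (0.22, 0.0419). Of 19 genes tested in both lines, 7 were called in both, all in 1 direction. Of all genes tested in both, 8.56% were called in both, 87.5% of these in 1 direction. Of the focal adhesion genes, 4 rose and 11 fell of 32 in MDA-MB-436 and 7 rose and 7 fell of 32 in SUM159PT, and 5 of 11 basement membrane partners fell in SUM159PT, among them HSPG2, perlecan (-1.06 ± 0.09). Basement membrane partners had 3 higher and 2 lower of 9 in MDA-MB-436. In MDA-MB-436 and SUM159PT, hemidesmosome partners had 1 higher and 2 lower of 4 and 0 higher and 1 lower of 3, non-integrin laminin receptors 1 higher and 1 lower of 5 and 2 higher and 2 lower of 5, matrix ligands 3 higher and 2 lower of 9 and 2 higher and 4 lower of 8, and cell-surface ligands 1 higher and 0 lower of 6 and 2 higher and 1 lower of 5.

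**Figure D5:**
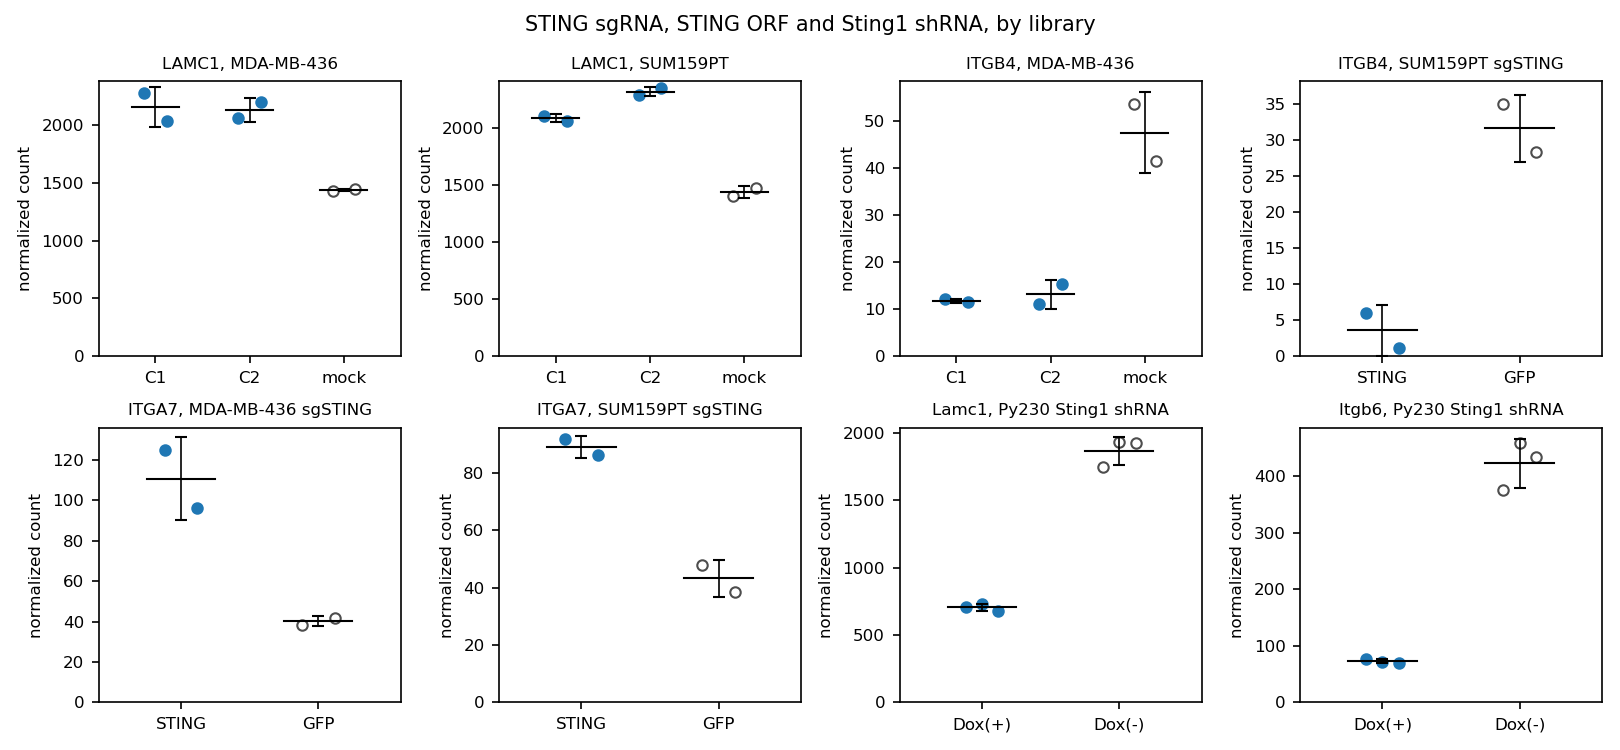
Normalized counts (y axis, from 0) of 6 gene and line pairs with STING sgRNA or STING ORF, and of Lamc1 and Itgb6 in Py230. Filled points are the altered groups and open points their controls, with means as lines and SDs as bars. LAMC1 is higher in C1 and C2 than in mock cells, ITGA7 higher with the STING ORF, and Lamc1 lower with doxycycline.

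In Py230 cells with the Sting1 shRNA, doxycycline went with lower Lamc1 and higher Lamb3. Of 22 tested genes 14 rose and 7 fell, beside 67.8% of all genes called (32.8% higher, 35.1% lower). Lamc1 had 710.4, 729.6 and 679 with doxycycline, against 1744, 1929 and 1924 with vehicle (log2 fold change -1.40 ± 0.05 (SE), limma adjusted p = 1.08e-17). Lamb3, by contrast, had 1385, 1381 and 1397 with doxycycline, against 657, 721 and 692 with vehicle (log2 fold change 1.01 ± 0.05 (SE), limma adjusted p = 5.35e-15). The 3 doxycycline libraries lay below the vehicle libraries for Lamc1 and above them for Lamb3. Lama2 had 18, 28.7 and 15.5 with doxycycline, against 5.33, 7.16 and 6.39 with vehicle (log2 fold change 1.54 ± 0.32 (SE), limma adjusted p = 0.000159), while Lamb1 fell, with a log2 fold change of -0.74, and Lamb2 rose by 0.49. Lama3 was not tested, since its mean was under 10.

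Among the receptors, Itgb6 had 76.7, 71.8 and 69.4 with doxycycline, against 375, 458 and 435 with vehicle (log2 fold change -2.52 ± 0.10 (SE), limma adjusted p = 3.56e-17). Itgb8, which also pairs with Itgav, had 1651, 1695 and 1658 with doxycycline, against 734, 743 and 713 with vehicle (log2 fold change 1.19 ± 0.05 (SE), limma adjusted p = 4.89e-17). The 2 partners of Itgav thus moved in opposite directions, and Itgav itself rose by 0.24 (limma adjusted p = 0.000392). Itga8 had 431, 473 and 389.9 with doxycycline, against 1020, 1006 and 1063 with vehicle (log2 fold change -1.26 ± 0.06 (SE), limma adjusted p = 6.24e-15), and Itga10 had 44.5, 32.1 and 49.3 with doxycycline, against 13.9, 16.1 and 26.6 with vehicle (log2 fold change 1.14 ± 0.25 (SE), limma adjusted p = 0.000244). Itgb4, the most abundant member here by count, had 11010, 11260 and 11170 with doxycycline, against 7758, 7604 and 7606 with vehicle (log2 fold change 0.54 ± 0.04 (SE), limma adjusted p = 1.53e-12). Itga6 rose by 0.39 and Itgb1 by 0.30, and for each of these the libraries of the groups did not overlap. Itga5 fell (-0.61), as did Itga3 (-0.23), while Itga7 (0.39), Itgb3 (0.29), Lama4 (0.55) and Lama5 (0.15) rose. Itga1 rose by 0.84 with overlapping libraries, and Itgb5 had -0.03, which did not pass.

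Partner genes were also read in Py230. Of 3 tested hemidesmosome partners, Plec (1.61 ± 0.04), plectin, and Cd151 (0.65 ± 0.05) rose and Dst (-0.35 ± 0.05) fell. Matrix ligands rose in 8 of 10, with Edil3 (2.49 ± 0.24) and Tnc (1.24 ± 0.04), and fell in 2, Cyr61 (-1.06 ± 0.05) among them. Focal adhesion genes had 13 higher and 9 lower of 30, led by Tln2 (1.61 ± 0.06). Basement membrane partners had 6 higher and 1 lower of 11, non-integrin laminin receptors 3 higher and 1 lower of 4 and cell-surface ligands 1 higher and 1 lower of 3. The basal epithelial sum was 5321 to 5965 with doxycycline, against 584.7 to 670.6 with vehicle, where Krt14 alone was 4835, 5222 and 5430 with doxycycline, against 549, 489.8 and 510.5 with vehicle, and Krt5 was at 0 to 5.37 in every library; the part of this shift in the Itgb4 and Lamb3 values was not tested. Doxycycline cannot be told apart from the shRNA in this design.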

How the data were processed

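RNA was sequenced from 55 libraries. Per the submitters' processing notes, HISAT2, featureCounts, StringTie and DESeq2 were used; the genome build, versions and strand setting are not given in the sources used here. The authors deposited 10 tables of signal values, read counts divided by a size factor per library. All values became whole reads within 0.05 when divided by the value of 1 read, which gave each library's reads. Genes whose values averaged 10 or more in a table entered limma 3.58.1 (R 4.3.3), on log2(value + 1), with Benjamini-Hochberg adjustment within a table, and 2 siRNA or sgRNA groups were averaged against their control. The fitting code was run on simulated data with few changed genes and a single setting of the spread. That is simpler than these data, so the run does not give error rates for them. Alternatives used edgeR 4.0.16, DESeq2 1.42.0, a pseudocount of 4, no filter, quantile normalization, a replicate block, 1 reagent group, or each library left out. The members, lists and the rule for named genes (members changed at least 2-fold and called, at most 12 per comparison, and 8 named in every comparison; 1 member is counted but not reported here) were chosen with earlier results of these data known; further members are named as examples chosen after their values were seen. Counting intervals (95%) and floors of 3 reads cover counting error only. The MDA-MB-436 Tax-R libraries differed by no more than sampling noise over all genes (chi-square per gene 0.855) but by more among the most highly counted genes (9.022), and were kept as 2 libraries. The mock MDA-MB-436 libraries were close to sampling noise by both measures (1.019 and 1.303). They were also kept as 2, and no fit counted them as 1. The parental MDA-MB-436 libraries had the highest value of all pairs among the most highly counted genes (165.776). Over all genes they had 1.845, below other pairs that reached up to 2.731. Replicate numbers were not used as pairs in the reported fits. Same-numbered libraries deviated together with correlations of -0.091 to 0.057, and of 0.11 for SUM159PT with the ORFs. With so few libraries, pairing is not shown to be absent. Promoters are from RefSeq (GRCh38.p14) and exon lengths from GENCODE.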

Additional observations from a re-analysis of the deposited data

Results flagged for a closer look

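For 10 genes the calls went in opposite directions in different cell lines, with the libraries of each line's groups apart, giving 24 values; the differences between lines were not tested. In Tax-R against parental cells, in MDA-MB-436 and then SUM159PT, the log2 fold changes were 0.65 and -0.49 for ITGA1, 1.22 and -0.86 for ITGA11, and -0.31 and 0.16 for ITGA2. They were -0.18 and 0.46 for ITGB5, and -0.24 and 0.29 for LAMA3. Both ITGA11 calls were lost without the filter on low values (limma adjusted p = 0.105 and 0.0713) and with DESeq2 (adjusted p = 0.246 and 0.396), and the SUM159PT one also when any 1 library was left out (limma adjusted p = 0.0556 to 0.122). The ITGA2 call in SUM159PT was lost with DESeq2 (adjusted p = 0.195), and that of LAMA3 in MDA-MB-436 without parental replicate 1 (limma adjusted p = 0.0542). With MYC siRNA, in MDA-MB-436, SUM159PT and then 4T1, the log2 fold changes were 0.12, -0.11 and 0.49 for LAMB1 and -1.22, -1.77 and 0.42 for ITGA6. With STING sgRNA, in MDA-MB-436 and then SUM159PT, they were 0.14 and -0.3 for ITGA3, -0.49 and 0.36 for LAMA5, 0.36 and -0.21 for LAMB1, and -0.53 and 0.52 for LAMB2. For C2 alone, the calls of ITGA3 in MDA-MB-436 (0.05, limma adjusted p = 0.221) and of LAMB1 in SUM159PT (-0.13, limma adjusted p = 0.0631) were lost.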

How the results depend on the processing

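Of 4145 values of the members under an alternative, 3898 kept the side of the threshold, 222 lost the call and 25 gained one. These values come from 354 results as reported, of which 203 were called. An uncalled result cannot lose a call, so the number kept is not a rate at which calls held. Where either fit made a call, 0 reversed in direction, and direction was not compared for values uncalled in both. Values to which DESeq2 gave no adjusted p are not among the 4145. With the STING ORF in MDA-MB-436, the 9 called members became 3 without the filter, 5 with DESeq2, 14 with the replicate block, and 4 to 11 when each library was left out. With the STING ORF in SUM159PT, 14 became 6 without the filter, 9 with DESeq2, and 9 to 16 when each library was left out. For C2 against C1 in MDA-MB-436, 2 became 0 without the filter and 0 to 2 with a library left out, and in SUM159PT 11 became 0 without the filter, 4 with DESeq2 and 1 to 4 with a library left out. The cause was not tested. The replicate block moved no other count of calls by over 1.5 times, and same-numbered libraries deviated together with correlations of -0.091 to 0.057, and 0.11 for SUM159PT with the ORFs, which has 2 groups of 2. Of 62 members called and changed at least 2-fold, 7 lost the call under some alternative. Low counts limit many subunits, and with a p above the threshold a difference is not shown to be absent.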
